A study of Mus musculus with 6 samples.

Results

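The genes of germ cell identity and of the piRNA pathway were examined as a set of 30 genes, taken by name from the 41053 genes of the count files. Polyadenylated RNA was sequenced from 6 lines of mouse spermatogonial stem cells, which sustain sperm production in the adult, kept in culture: 3 lines labelled Ephb2-KO and 3 labelled wild type. All lines came from cells electroporated with a plasmid carrying a GFP reporter, with a guide RNA (sgRNA) against the receptor tyrosine kinase gene Ephb2 for the Ephb2-KO lines and without it for the wild type lines, and GFP positive cells were sorted and subcloned, so each library stands for 1 subcloned line. In both groups replicates 1 and 2 were at passage 20 and replicate 3 was at passage 18, and all were grown in a medium based on StemPro-34. The labels name no strain, and they leave unsaid what lines of the same number have in common.

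PIWI proteins carry short guide RNAs, the piRNAs, that silence transposons in the germ line. In mice long single-stranded precursors are cut at the surface of mitochondria and in the nuage, a granule beside the nucleus, are loaded into a PIWI protein, trimmed and methylated at the 3′ end. Tudor domain proteins hold the parts together by binding methylated arginines of the PIWI proteins. Piwil2 (MILI) is made in spermatogonia and spermatocytes, Piwil4 (MIWI2) mainly in fetal germ cells, and a later wave of piRNAs starts at the pachytene stage of meiosis under the transcription factor Mybl1.

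Libraries held between 21772404 and 34047758 counts, and 15263 genes had enough counts to be tested. CPM is the count scaled to library size by edgeR's TMM method, RPKM is CPM per kilobase of exon and is used wherever genes are compared with each other, and 3 counts in a library corresponded to 0.0803 to 0.147 CPM. Ephb2 itself measured 37.1, 16.5 and 13.4 CPM in Ephb2-KO replicates 1, 2 and 3, against 21.3, 27.1 and 10.8 CPM in wild type replicates 1, 2 and 3 (log2 fold change 0.18, SE 0.50, adjusted p = 1), so the RNA level gave no separation of the labels. The counts cover all exons and check only the amount of RNA. Ephb2-KO therefore stands below for the libraries labelled so. Dazl and Ddx4, the defining germ cell genes among the 30, had counts in all 6 libraries. The 13 markers of undifferentiated spermatogonia summed to 1733 to 2139 CPM in the 4 libraries at passage 20 and 1035 to 1075 CPM in the 2 at passage 18. The 13 fibroblast or stromal markers ran the other way, from 3216 to 5659 CPM at passage 20 and from 17970 to 21374 CPM at passage 18. Of the marker lists of Sertoli, Leydig, macrophage and endothelial cells, each summed to at most 94.3 CPM in any library. In these bulk libraries fewer germ cells and less RNA per germ cell cannot be told apart.

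All 30 genes had at least 1 count, and 26 passed the filter on low counts. The other 4 were Tdrd6, Gtsf1, Rpl10l and Sox17. The set summed to between 3150 and 5434 CPM, which was 0.295% to 0.558% of all counts of a library. Per length, Dazl was the most abundant at a mean of 377 RPKM over the 6 libraries (rank 118 of the 15263 tested genes), followed by Hsp90aa1 at 192 RPKM, Tex19.1 at 116 RPKM, Mael at 112 RPKM and Piwil2 at 84.2 RPKM. Next came Ddx25 at 74.2 RPKM, Asz1 at 58.3 RPKM, Tdrd1 at 56.7 RPKM and Ddx4 at 52.4 RPKM. Over the libraries each of these 9 genes overlapped its neighbour in the order. In all, 15 of the 26 tested members averaged 20 RPKM or more, and 5 (Piwil4, Tdrd9, Fkbp6, Mybl1 and Prdm1) averaged less than 1 RPKM. The order at the low end was Prdm1 at 0.836 RPKM, Fkbp6 at 0.772 RPKM, Mybl1 at 0.715 RPKM, Tdrd9 at 0.617 RPKM and Piwil4 at 0.157 RPKM, and the ranges of Prdm1, Fkbp6, Mybl1 and Tdrd9 over the libraries overlapped. For 17 tested members the highest library was less than 2.5 times the lowest, and for 9 it was 3 times the lowest or more.

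**Figure D1:**
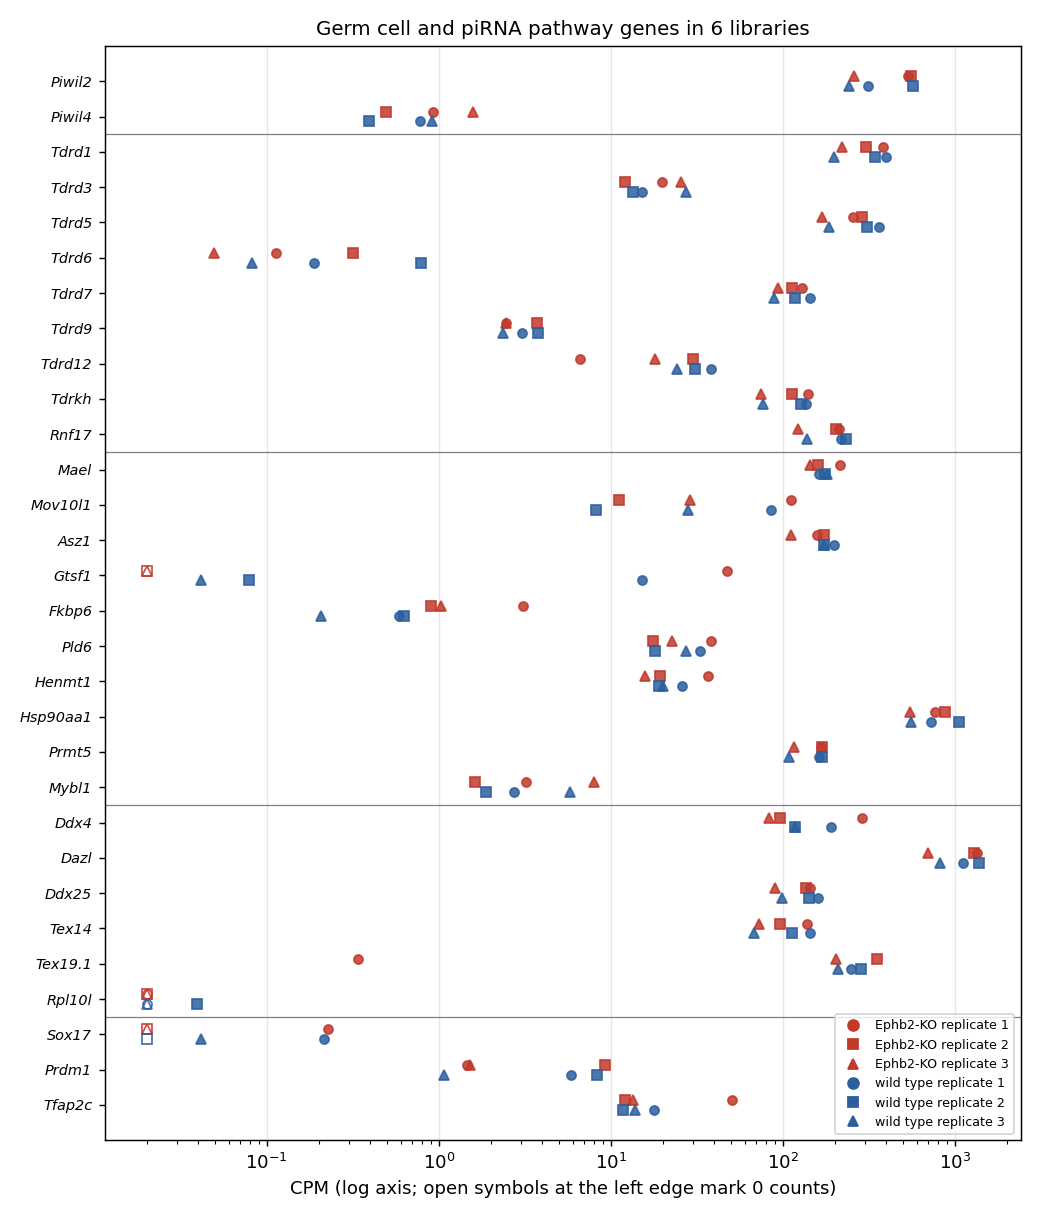
CPM of all 30 genes (log axis) in the 3 Ephb2-KO libraries (red) and the 3 wild type libraries (blue), with the replicate number as the symbol and lines between the groups of roles. For most genes the symbols of the same shape lie together, while Tex19.1 in Ephb2-KO replicate 1 (0.338 CPM) and Gtsf1 in both replicates 1 (47.6 and 15.3 CPM) stand far from the rest.

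The genotype comparison asked whether the lines labelled Ephb2-KO keep the expression of these germ cell genes. None of the 26 tested members passed the threshold (a Benjamini-Hochberg adjusted p under 0.05 from edgeR's quasi-likelihood fit), and neither did any of the 15263 genes (0.0%). At an unadjusted p under 0.05 there was 1 member, Fkbp6, among 32 genes in all. Lines of the same replicate number resembled each other more than lines of the same label did, so the fit was repeated with the replicate number as a block. In that fit 4 of all genes (0.0262%) and 0 members passed. An unadjusted p under 0.05 was found for 2 members, Fkbp6 and Asz1, and for 987 genes in all. Without the block, the median log2 fold change of the members was -0.03, beside 0.01 over all tested genes. A p that misses the threshold does not show that the levels were equal, and standard errors without the block ran from 0.21 for Mael to 1.45 for Tex19.1.

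Of the PIWI genes, Piwil2 measured 538, 556 and 259 CPM in the Ephb2-KO lines and 314, 569.6 and 244 CPM in the wild type lines. Its lowest values were both replicates 3 and wild type replicate 1, and the groups overlapped (log2 fold change 0.26, SE 0.42). Piwil4, the nuclear PIWI protein of fetal germ cells, was low, with 0.930, 0.495 and 1.57 CPM in the Ephb2-KO lines and 0.777, 0.392 and 0.908 CPM in the wild type lines (log2 fold change 0.52, SE 0.59). It was higher in the Ephb2-KO line at all 3 replicate numbers, with overlapping ranges.

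The 9 Tudor domain genes gave 7 log2 fold changes below 0 and 1 above among the 8 tested, all between -0.77 and 0.04. Tdrd1, a nuage scaffold that binds Piwil2, measured 385, 303 and 221 CPM in the Ephb2-KO lines and 399, 345 and 198 CPM in the wild type lines, and Tdrd5, needed for the pachytene piRNAs, measured 255, 288 and 169 CPM in the Ephb2-KO lines and 363, 311 and 187 CPM in the wild type lines. The groups overlapped for Tdrd1, and for Tdrd5 each Ephb2-KO line lay below the wild type line of its number (log2 fold change -0.27, SE 0.32). Rnf17, a Tudor protein that limits piRNA amplification, likewise lay lower in all 3 pairs, with 211, 205 and 123 CPM in the Ephb2-KO lines and 218, 235 and 139 CPM in the wild type lines (log2 fold change -0.14, SE 0.30). The steps within pairs were at most 1.15-fold for Rnf17, and both replicates 3 were lowest. Tdrkh, which holds PIWI proteins at mitochondria for trimming, had 140.1, 113 and 74.7 CPM in the Ephb2-KO lines and 137, 127 and 77.2 CPM in the wild type lines. Tdrd7 ran from 88.6 to 143 CPM over the 6 libraries and Tdrd3, which is not restricted to germ cells, from 12.2 to 27.2 CPM. Tdrd9, a helicase that works with Piwil4, ran from 2.35 to 3.76 CPM. Tdrd6, a component of the chromatoid body of spermatids, had 1 to 20 counts per library, or 0.113, 0.315 and 0.0491 CPM in the Ephb2-KO lines and 0.187, 0.784 and 0.0825 CPM in the wild type lines.

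Tdrd12, a Tudor protein with a helicase domain that acts in secondary piRNA production, was the member of this family that stood apart. It measured 6.60, 30.1 and 18.1 CPM in the Ephb2-KO lines and 38.3, 30.9 and 24.3 CPM in the wild type lines. Ephb2-KO replicate 1 was lowest, 5.80-fold below wild type replicate 1, while the lines numbered 2 differed by 1.03-fold and those numbered 3 by 1.34-fold (log2 fold change -0.77, SE 0.52, adjusted p = 1).

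Among the other biogenesis factors, the endonuclease Pld6, which cuts precursors at mitochondria, had 38.1, 17.6 and 22.7 CPM in the Ephb2-KO lines and 33.0, 18.1 and 27.3 CPM in the wild type lines, and its scaffold partner Asz1 had 158, 173 and 111 CPM in the Ephb2-KO lines and 199, 173 and 174 CPM in the wild type lines. The highest Pld6 values were in both replicates 1, and the groups overlapped for both genes. Asz1 had a log2 fold change of -0.30 (SE 0.22). Henmt1, the methyltransferase of piRNA 3′ ends, averaged 24.0 ± 11.2 CPM in Ephb2-KO lines and 21.7 ± 3.62 CPM in wild type lines (SD, 3 lines each), with the highest value, 36.8 CPM, in Ephb2-KO replicate 1. Mael, which protects transposon silencing in spermatocytes, was among the steadiest members, at 145 to 216 CPM. Prmt5, which methylates the arginines that Tudor domains bind, ran from 108 to 169.6 CPM, and Hsp90aa1, a chaperone used in loading PIWI proteins, from 550 to 1055 CPM. For both the 2 libraries at passage 18 were lowest and the genotype groups overlapped. Fkbp6, a co-chaperone in the same loading step, measured 3.10, 0.900 and 1.03 CPM in the Ephb2-KO lines and 0.589, 0.627 and 0.206 CPM in the wild type lines. It was the 1 member whose ranges did not overlap between genotypes (3.85% of the tested members, against 2.39% of all tested genes), and it was higher in the Ephb2-KO line at all 3 numbers, by 5.26-fold, 1.44-fold and 5.0-fold. Its log2 fold change was 1.82 (SE 0.70) with an unadjusted p of 0.0344 and an adjusted p of 1, and with the replicate number as a block the adjusted p was 0.741. Levels of this size rest on 5 to 110 counts per library.

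Mybl1, the transcription factor of the pachytene piRNA program, had 3.21, 1.62 and 7.96 CPM in the Ephb2-KO lines and 2.73, 1.88 and 5.78 CPM in the wild type lines. Both replicates 3 were highest, and the ranges of the genotypes overlapped (log2 fold change 0.30, SE 0.70).

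Of the germ cell RNA-binding genes, Dazl, a translation regulator that germ cells need, measured 1351, 1287 and 696 CPM in the Ephb2-KO lines and 1111, 1382 and 826 CPM in the wild type lines, with means of 1112 ± 361 CPM in Ephb2-KO lines and 1106 ± 278 CPM in wild type lines (SD, 3 lines each). Ddx4, the vasa helicase of the nuage, measured 290.4, 95.8 and 83.7 CPM in the Ephb2-KO lines and 191, 117 and 118 CPM in the wild type lines. Replicate 1 was highest in both groups, and Ddx4 was higher in Ephb2-KO at number 1 and lower at numbers 2 and 3 (log2 fold change 0.14, SE 0.50). Ddx25, a helicase known from RNA export in spermatids, was lower in the Ephb2-KO line of all 3 pairs by at most 1.11-fold, with 145, 137 and 89.7 CPM in the Ephb2-KO lines and 160.2, 142 and 98.4 CPM in the wild type lines. Tex14, a component of the bridges between germ cells, had 139, 97.0 and 72.5 CPM in the Ephb2-KO lines and 143, 114 and 68.1 CPM in the wild type lines, and its groups overlapped. Rpl10l, a copy of the ribosomal gene Rpl10 used in meiosis, had 1 count in wild type replicate 2 and none elsewhere. Reads shared by near-identical copies were left out of the counts, so this value is uncertain, and at the floor of 3 counts a count of 0 allows up to 0.147 CPM in the shallowest library.

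The transcription factors of germ cell specification ran per length from 0.0254 RPKM for Sox17 to 5.41 RPKM for Tfap2c. Sox17, used for this step in human germ cells, had 8 counts in each replicate 1, 1 count in wild type replicate 3 and none in the other 3 libraries. Prdm1 (Blimp1) measured 1.47, 9.32 and 1.52 CPM in the Ephb2-KO lines and 5.89, 8.27 and 1.07 CPM in the wild type lines and Tfap2c 50.6, 12.1 and 13.6 CPM in the Ephb2-KO lines and 17.7, 11.7 and 13.8 CPM in the wild type lines. Prdm1 in Ephb2-KO replicate 1 was 4.02-fold below wild type replicate 1, and Tfap2c in Ephb2-KO replicate 1 was 2.85-fold above wild type replicate 1. At numbers 2 and 3 Tfap2c differed by at most 1.03-fold, and neither gene passed the test (log2 fold change -0.31, SE 0.96 for Prdm1 and 0.82 (SE 0.58) for Tfap2c).

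Over the pairs of lines with the same number, 4 of 26 members (15.4%) lay lower in Ephb2-KO at all 3 numbers (Tdrd5, Tdrd12, Rnf17 and Ddx25), beside 12.3% of all tested genes. Another 4 (15.4%) lay higher at all 3 (Piwil4, Mov10l1, Fkbp6 and Prmt5), beside 15.6% of all tested genes. Both shares were near those of all genes. The fibroblast or stromal markers lay higher in Ephb2-KO at all 3 numbers for 10 of 13 genes, and summed to 5086, 5659 and 21374 CPM in Ephb2-KO replicates 1, 2 and 3, against 3216, 4480 and 17970 CPM in wild type replicates 1, 2 and 3. None passed the threshold, and with the replicate number as a block 7 of the 13 had an unadjusted p under 0.05, with a median log2 fold change of 0.35. Their part in the members' values between genotypes was not tested. At number 1, 5 of 26 members differed by more than 2-fold (Tdrd12, Fkbp6, Tex19.1, Prdm1 and Tfap2c), where 7.66% of all tested genes did. At number 2 no member did (2.94% of all tested genes), and at number 3 it was Fkbp6 alone (3.85%, with 3.7% of all tested genes). These counts compare single libraries and carry no test.

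**Figure D2:**
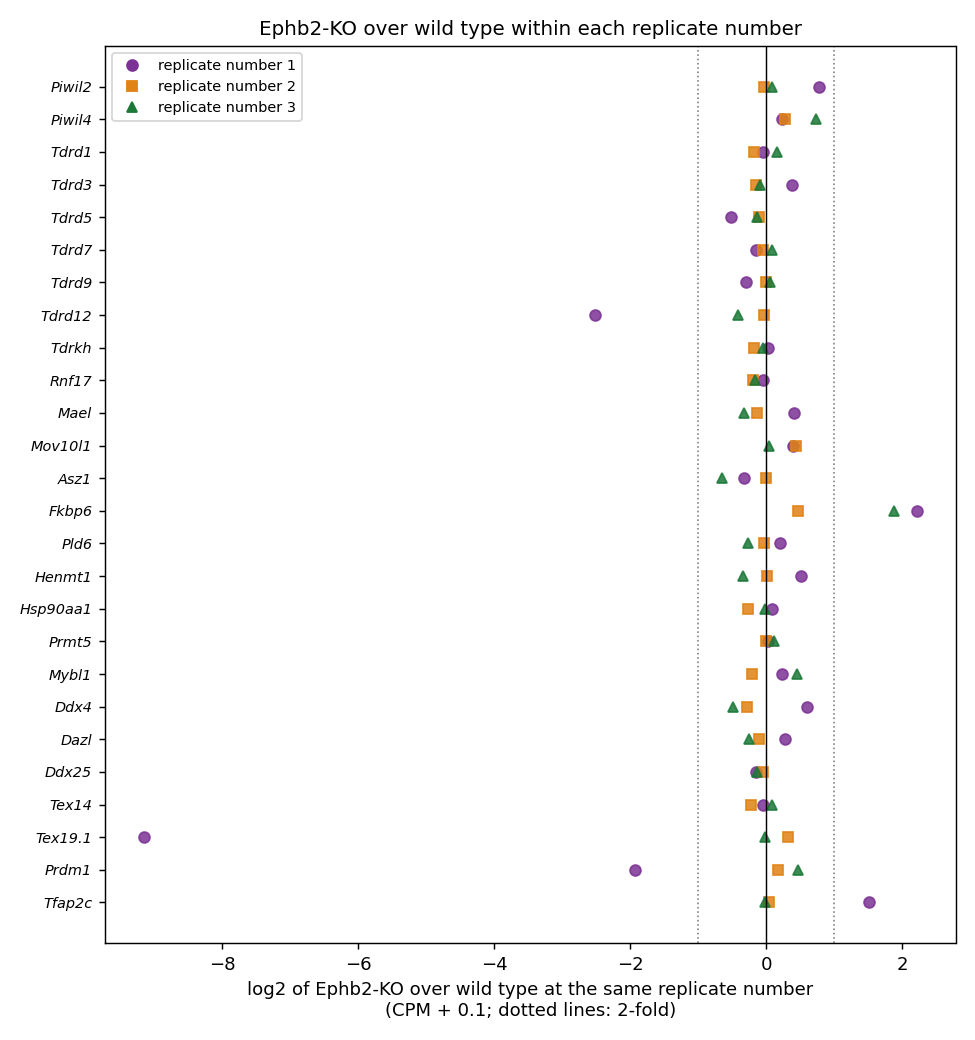
The log2 ratio of Ephb2-KO over wild type between lines of the same replicate number for the 26 tested members (CPM plus 0.1, dotted lines at 2-fold). The points of replicate numbers 2 and 3 lie within 2-fold for all members except Fkbp6 at number 3, and 5 points of replicate number 1 lie outside, with Tex19.1 at -9.16.

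Tex19.1, a mammalian gene that restrains retrotransposons in germ cells and early embryos, was close to absent from 1 line. It measured 0.338, 355 and 205 CPM in Ephb2-KO replicates 1, 2 and 3, against 251, 284 and 208 CPM in wild type replicates 1, 2 and 3. The value in Ephb2-KO replicate 1 rests on 12 counts (exact Poisson 95% interval 0.175 to 0.591 CPM, covering counting error only), against 9360 counts in wild type replicate 1, a 741-fold difference, while the other 5 libraries ranged from 205 to 355 CPM. The gene spans chr11:121146143-121148319 on the plus strand of GRCm38 with 1872 bases of exon. Its 5 measured neighbours within 100 kb, among them its closest paralog, had ratios of Ephb2-KO replicate 1 over wild type replicate 1 between 0.803 and 1.09. With 1 line of 3 carrying the difference, the fit gave a log2 fold change of -0.41 (SE 1.45) and an adjusted p of 1, and -1.37 with the replicate number as a block (adjusted p = 0.933).

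Gtsf1, a small zinc finger protein that helps PIWI proteins cut their targets, was present at number 1 alone, in both genotypes. The counts were 1689, 0 and 0 in Ephb2-KO replicates 1, 2 and 3 and 571, 2 and 1 in wild type replicates 1, 2 and 3, or 47.6, 0 and 0 CPM in Ephb2-KO and 15.3, 0.0784 and 0.0413 CPM in wild type. Against the floor of 3 counts per library, Ephb2-KO replicate 1 was at least 352-fold higher than Ephb2-KO replicate 2 and at least 323-fold higher than Ephb2-KO replicate 3. Wild type replicate 1 had 195 times the CPM of wild type replicate 2 (95% interval from counting error 53.8 to 1615) and 371 times that of wild type replicate 3 (66.3 to 14666). Within number 1 the Ephb2-KO line had 3.11 times the CPM of the wild type line. The 4 measured neighbours of Gtsf1 within 100 kb had 1.33 to 2.95 times. The highest ratio was that of Nckap1l, at only 0.395 CPM in Ephb2-KO replicate 1 and 0.134 CPM in wild type replicate 1. None of the 4 neighbours was present at number 1 alone, and Itga5 and Nckap1l were lowest in both lines of that number. Gtsf1 spans chr15:103402405-103430470 on the minus strand with 1390 bases of exon. The spermatocyte and spermatid markers (8 genes, Sycp1 and Sycp3 among them) summed to 62.3 CPM in Ephb2-KO replicate 1 and 36.2 CPM in wild type replicate 1, and to between 1.47 and 3.15 CPM in the other 4 libraries. Sycp1 and Sycp3 made up most of both sums at number 1, and only 2 of the 8 markers passed the filter on low counts. The part of these markers in the Gtsf1 values was not tested.

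Mov10l1, the germ cell RNA helicase that feeds precursors into processing, also followed the replicate number. It measured 112, 11.2 and 29.1 CPM in Ephb2-KO replicates 1, 2 and 3, against 85.5, 8.23 and 28.3 CPM in wild type replicates 1, 2 and 3. Both replicates 1 were highest and both replicates 2 lowest, at the same passage, and within each number the lines differed by at most 1.36-fold. The gene spans chr15:88982909-89055152 on the plus strand. Its log2 fold change between genotypes was 0.32 (SE 1.0).

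**Figure D3:**
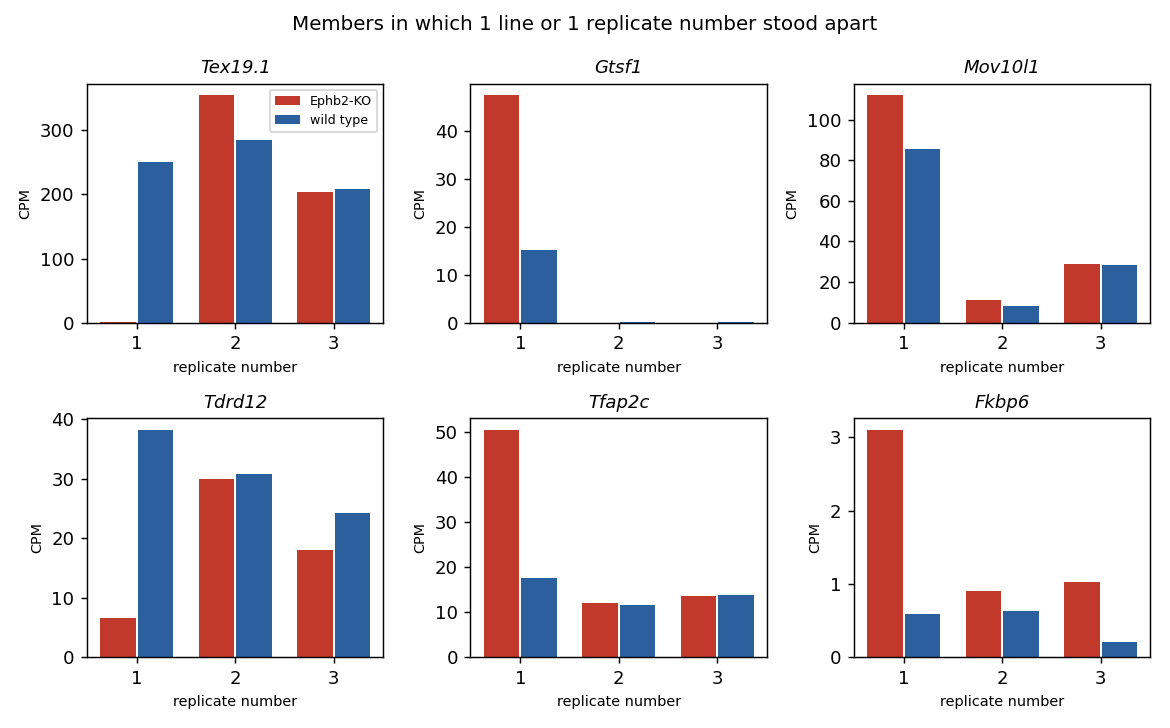
CPM of 6 members by replicate number, Ephb2-KO (red) beside wild type (blue), each bar 1 library. Tex19.1 and Tdrd12 are lowest and Tfap2c and Fkbp6 highest in Ephb2-KO replicate 1, while Gtsf1 and Mov10l1 are highest in both lines numbered 1.

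The promoters of these 3 genes are shown because their levels followed 1 line or 1 replicate number, so that their composition can be read beside that of the other members. Each is 250 bases before to 50 bases after the RefSeq start on GRCm38.p6, read 5′ to 3′ on the strand of the gene, with CG dinucleotides in capitals. Tex19.1 lies at chr11:121145893-121146192 on the plus strand, Gtsf1 at chr15:103430378-103430677 on the minus strand and Mov10l1 at chr15:88982744-88983043 on the plus strand.
Tex19.1: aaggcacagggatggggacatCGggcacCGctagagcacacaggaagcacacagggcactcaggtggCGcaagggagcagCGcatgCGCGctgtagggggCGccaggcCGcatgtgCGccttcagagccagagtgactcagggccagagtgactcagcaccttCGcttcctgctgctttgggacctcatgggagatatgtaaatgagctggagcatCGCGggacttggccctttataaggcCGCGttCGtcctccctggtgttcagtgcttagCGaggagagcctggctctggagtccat
Gtsf1: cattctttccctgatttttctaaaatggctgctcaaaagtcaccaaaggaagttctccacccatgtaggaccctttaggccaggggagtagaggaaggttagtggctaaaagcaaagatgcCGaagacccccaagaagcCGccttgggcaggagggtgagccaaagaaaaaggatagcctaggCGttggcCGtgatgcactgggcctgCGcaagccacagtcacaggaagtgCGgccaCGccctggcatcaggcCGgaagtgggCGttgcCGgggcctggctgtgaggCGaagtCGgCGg
Mov10l1: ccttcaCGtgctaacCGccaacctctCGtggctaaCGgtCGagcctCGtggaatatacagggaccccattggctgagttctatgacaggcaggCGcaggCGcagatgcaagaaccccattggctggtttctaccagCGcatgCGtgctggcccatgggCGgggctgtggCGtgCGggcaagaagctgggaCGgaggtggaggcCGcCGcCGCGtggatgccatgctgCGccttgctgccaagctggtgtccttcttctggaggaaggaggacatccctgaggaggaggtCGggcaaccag
These windows hold 16 CG dinucleotides for Tex19.1, 13 for Gtsf1 and 20 for Mov10l1. RefSeq windows were matched for 23 of the 30 members, and the median was 20 CG dinucleotides (range 4 to 48), beside 7 over all 32851 windows. The E-box CACGTG, searched on both strands, was present in 8 of the 23 windows (34.8%) and in 7.15% of all windows, and the MYB-type motif AACNGCC in 7 of 23 (30.4%) and in 12.1% of all windows. Mov10l1 held 1 match of each and Gtsf1 and Tex19.1 held neither. The matched window of Prdm1 lies 69753 bases from the start given in the count files and describes a different start. CACGTG itself holds a CG, and the shares were not set against windows of like CG content. A match describes letters and no binding was measured.

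The comparison by passage set the 4 libraries at passage 20 against the 2 at passage 18, with the genotype in the model. On the TMM scale, 9 of the 26 members rose at passage 20 (none did when libraries were scaled to spermatogonia markers, as given below): Piwil2, Tdrd1, Tdrd5, Tdrkh, Rnf17, Prmt5, Dazl, Ddx25 and Tex14. That is 34.6% of the members, where 10.4% of all tested genes were higher. Mybl1 fell, 1 of 26 (3.85%), where 15.4% of all tested genes were lower. The median log2 fold change of the members was 0.62, beside 0.06 over all tested genes, and 23 of 26 lay above 0. Passage cannot be told apart from anything else the 2 lines numbered 3 share. It was the same for both lines of a number, so the comparison is numbers 1 and 2 against number 3. The fit took the 6 libraries as independent, though lines of the same number resembled each other. Its p-values and the SDs below therefore overstate the replication.

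Piwil2 averaged 494 ± 121 CPM at passage 20 and 252 ± 10.4 CPM at passage 18 (SD, n = 4 and n = 2), with a log2 fold change of 0.97 (SE 0.25, adjusted p = 0.0295). Dazl averaged 1283 ± 121 CPM at passage 20 and 761 ± 92.2 CPM at passage 18, with a log2 fold change of 0.75 (SE 0.19, adjusted p = 0.0249). For Piwil2 and Dazl no library at passage 20 fell as low as either library at passage 18. Tex14 averaged 123 ± 21.8 CPM at passage 20 and 70.3 ± 3.16 CPM at passage 18, with a log2 fold change of 0.81 (SE 0.20, adjusted p = 0.0246). Of the Tudor genes, Tdrd1 had a log2 fold change of 0.78 (SE 0.18, adjusted p = 0.0184), Tdrd5 of 0.76 (SE 0.16, adjusted p = 0.0129), Tdrkh of 0.77 (SE 0.15, adjusted p = 0.0117) and Rnf17 of 0.73 (SE 0.14, adjusted p = 0.00972). These 4 genes, named here because they passed, moved by nearly the same factor. The other tested Tudor genes had 0.46 (SE 0.16) for Tdrd7, 0.43 (SE 0.38) for Tdrd9, 0.26 (SE 0.53) for Tdrd12 and -0.79 (SE 0.26) for Tdrd3. No test compared them with the 4 that passed. Ddx25 had a log2 fold change of 0.63 (SE 0.14, adjusted p = 0.0162) and Prmt5, which all cell types use, of 0.57 (SE 0.13, adjusted p = 0.0197). Mybl1 averaged 2.36 ± 0.740 CPM at passage 20 and 6.87 ± 1.54 CPM at passage 18, with a log2 fold change of -1.52 (SE 0.39, adjusted p = 0.0278), and both libraries at passage 18 were above all 4 at passage 20.

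Of the 16 members that did not pass, Prdm1 had the largest value, 2.24 (SE 0.76, adjusted p = 0.0671), with 6.24 ± 3.49 CPM at passage 20 and 1.30 ± 0.318 CPM at passage 18, where Ephb2-KO replicate 1 at 1.47 CPM lay within the passage 18 level. Hsp90aa1 had 0.63 (SE 0.20, adjusted p = 0.0567), Tdrd7 0.46 (SE 0.16, adjusted p = 0.0643) and Tdrd3, in the other direction, -0.79 (SE 0.26, adjusted p = 0.0577). Mael at 0.13, Pld6 at 0.10 and Tex19.1 at 0.07 lay nearest to 0. By ranges alone, 11 members (42.3%) were higher in every library at passage 20, beside 26.6% of all tested genes, and 2 (7.69%), Mybl1 and Tdrd3, were lower in every one, beside 26.9% of all tested genes.

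**Figure D4:**
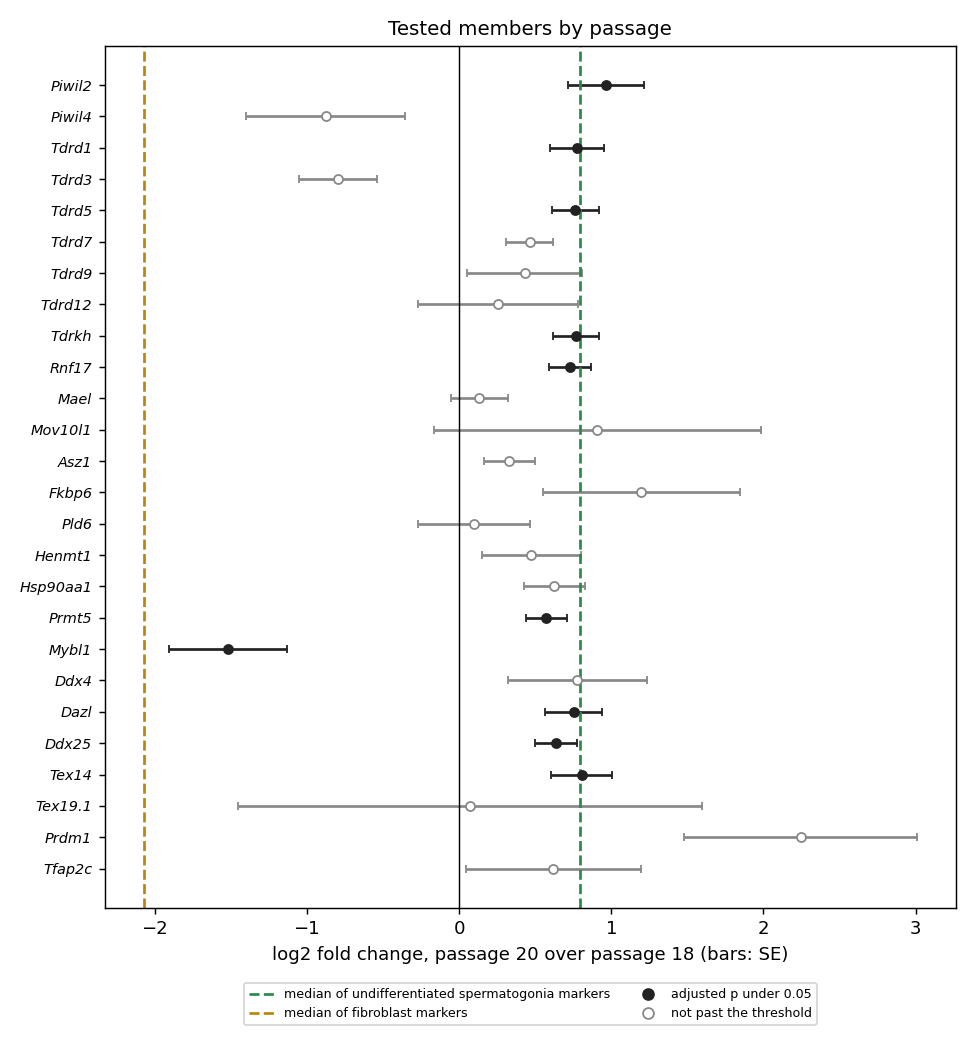
The log2 fold change of passage 20 over passage 18 for the 26 tested members (bars, SE; filled, adjusted p under 0.05), with dashed lines at the medians of the undifferentiated spermatogonia markers (0.80) and of the fibroblast markers (-2.07). The 9 filled points above 0 lie between 0.57 and 0.97, around the spermatogonia line, and Mybl1 lies at -1.52. Values are on the TMM scale, and scaled to the spermatogonia markers 6 of the 9 lie below 0.

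The markers of undifferentiated spermatogonia moved with the members: 9 of 13 passed, all higher at passage 20, with a median of 0.80. Fibroblast or stromal markers moved against them, with 11 of 13 lower, none higher and a median of -2.07. Their part in the members' values was not tested. When libraries were scaled to the 13 spermatogonia markers, a setting chosen after the data were seen, no member was higher and 4 were lower at passage 20 (Mael, Piwil4, Tdrd3 and Mybl1), the median of the members was -0.15 and the median of all genes moved to -0.71, with 70 genes higher and 6972 lower. On that scale, of the 9 members that rose under TMM, Tdrd5, Tdrkh, Rnf17, Prmt5, Dazl and Ddx25 lay between -0.20 and 0 and Piwil2, Tdrd1 and Tex14 above 0, and Mybl1 was past the threshold on both scales. Without wild type replicate 3 no member passed the threshold (284 of all genes), and without Ephb2-KO replicate 3 no member did either (325 of all genes), where the lone passage 18 library is assumed to vary like the others. With the replicate number as a block 15 members and 7323 genes passed. That fit takes its spread from within the numbers and not from the differences between numbers.

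The response to passage was not shown to depend on the genotype label: in a model with an interaction, 0 of 26 members and 0 of all genes passed, no member had an unadjusted p under 0.05, and the lowest member p was 0.224. Each genotype had 1 library at passage 18, so the passage 18 arms of this test were single libraries. The test therefore says little about a difference.

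Among the 3 replicate numbers, tested together over both genotypes, 19 of 26 members (73.1%) differed, where 54.2% of all tested genes did. The smallest adjusted p was that of Mov10l1 at 4.47e-07, followed by Tex14 at 0.000668, Tdrkh at 0.00111 and Tdrd1 at 0.00133. The 7 tested members that did not pass were Piwil4, Tdrd9, Tdrd12, Mael, Asz1, Fkbp6 and Tex19.1. When either replicate 3 was left out, fewer members and fewer of all genes passed. Such a fit leaves number 3 with a lone library.

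Genes around the pathway, from a list of 26 further factors of piRNA biology, mRNA decay and arginine methylation, gave 24 tested genes. Between genotypes 0 passed, and 3 of 24 rose at passage 20 on the TMM scale, near the 10.4% of all tested genes, of which Edc4 (-0.13) and Xrn1 (-0.22) turned below 0 when scaled to the spermatogonia markers: Dcp1a, a decapping factor (log2 fold change 0.90, SE 0.17, adjusted p = 0.00956), its scaffold Edc4 (0.65, SE 0.16, adjusted p = 0.0246) and the exonuclease Xrn1 (0.56, SE 0.16, adjusted p = 0.0393). All 3 act on mRNA in all cells. In the genotype comparison the smallest p-values belonged to Tex15, a factor in piRNA-directed silencing, with 40.8, 41.4 and 46.8 CPM in the Ephb2-KO lines and 129, 42.9 and 44.1 CPM in the wild type lines (log2 fold change -0.75, SE 0.45), and to Dnmt3l, a cofactor of DNA methylation in fetal germ cells, with 1.80, 1.17 and 1.82 CPM in the Ephb2-KO lines and 0.536, 1.02 and 1.24 CPM in the wild type lines (log2 fold change 0.79, SE 0.49). Wild type replicate 1 was the high library for Tex15, and neither gene passed. Among replicate numbers 10 of 24 differed, a smaller share than the 54.2% of all tested genes, with the smallest adjusted p for the poly(A) binding protein Pabpc1 at 0.000257, then Dcp1a at 0.00156, Edc4 at 0.00565 and Exd1, a factor of piRNA biogenesis, at 0.00979.

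Another 24 germ cell genes gave 20 tested ones. Lin28a, Sall4 and Uchl1 of this list are also among the markers of undifferentiated spermatogonia. Between genotypes 0 passed, with log2 fold changes from -0.36 to 0.30, and the smallest p-values belonged to Brdt (74.3, 65.8 and 73.2 CPM in the Ephb2-KO lines and 126, 76.6 and 66.3 CPM in the wild type lines) and Nanos3, an RNA-binding protein of early germ cells (102, 69.3 and 72.1 CPM in the Ephb2-KO lines and 143, 65.1 and 105 CPM in the wild type lines). At passage 20 on the TMM scale, 9 of 20 rose, beside 10.4% of all tested genes, and none fell. All 20 lay above 0, with a median of 0.58, and scaled to the spermatogonia markers Tex101 (-0.0129) and Uchl1 (-0.0401) turned below 0. They included Tex11 (log2 fold change 0.80, SE 0.15, adjusted p = 0.00879), Tex101 (0.77, SE 0.15, adjusted p = 0.0118), Rhox13 (0.92, SE 0.19, adjusted p = 0.0140) and Uchl1, a ubiquitin hydrolase of spermatogonia (0.74, SE 0.16, adjusted p = 0.0162). Among replicate numbers 18 of 20 differed, beside 54.2% of all tested genes, led by Tex11 at an adjusted p of 0.000823, Rhox13 at 0.00110, Tex101 at 0.00120 and Nr6a1 at 0.00187.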

How the data were processed

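Each deposited file lists, gene by gene, a raw count of reads and the length of its exons. According to the file headers, the authors used featureCounts 1.4.6-p4 on exons, by gene name, with the GENCODE vM3 annotation and strand setting 2. No option for read pairs, reads mapping to several places or overlapping features was set, so near-identical copies are undercounted. STAR, FastQC and GRCm38.p3 are named in the submitters' processing notes, and how the alignment was run is not given in the sources used here.

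The tests ran in edgeR 4.0.16 (R 4.3.3) on the counts: filterByExpr (15263 genes kept), TMM scaling, glmQLFit with robust estimation and glmQLFTest, with Benjamini-Hochberg adjustment over all tested genes at 0.05. CPM and RPKM were computed from the counts and exon lengths with TMM-scaled library sizes. The genotype fit used all 6 libraries with no covariate, the passage fit had the genotype as a term, and replicate numbers were tested together. DESeq2 1.42.0, RLE scaling, other filters, the replicate block and leaving out each library were alternatives.

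Whether replicate numbers pair the lines was read from the shared numbers in the titles and from the correlation, over genes, of deviations from the group means. It was 0.596, 0.736 and 0.850 for numbers 1, 2 and 3, and at most 0.0790 between different numbers, so lines were treated as paired in the replicate block (bound 0.1). The block lowered edgeR's biological coefficient of variation to 0.166, against 0.440 without it. Chi-square per degree of freedom between any pair of libraries was 22.1 to 307, so none was a duplicate. Without the block, p-values rest on the spread between these lines. With the block and among replicate numbers, they rest on how far the 2 lines of a number depart from the common difference between genotypes. The scripts were also run on simulated data with changes put in. Those data had the lower spread of the block fit and no other effect of replicate number. That run checks the scripts and not the error rates of the tests here.

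The members and lists were chosen with earlier results of these data known. All 30 members are given. From the lists of other pathway and other germ cell genes, up to 4 genes past the threshold with the smallest p are named per comparison, otherwise the 2 with the smallest p. Promoter windows are from RefSeq.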

Additional observations from a re-analysis of the deposited data

Results flagged for a closer look

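Over 42 genes, the 4 libraries at passage 20 were searched for a highest or lowest library set apart from the rest by more than Dixon's 95% critical value. Chance marks about 1 in 20 such groups. Piwil2 was lowest in wild type replicate 1, at 314 CPM. Fkbp6 was highest in Ephb2-KO replicate 1, at 3.10 CPM, and Tfap2c was highest in the same library, at 50.6 CPM. Tex15 was highest in wild type replicate 1, at 129 CPM, and Xrn1 was highest in wild type replicate 2, at 120.0 CPM. No cause was tested.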

How the results depend on the processing

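Between the genotypes, the count of members past the threshold was 0 under every alternative run: RLE scaling, no filter on low counts, a filter of 5 CPM in 3 libraries, DESeq2, the replicate block and leaving out each library. Of all genes, DESeq2 called 4 and the replicate block 4. With the replicate block the log2 fold change between genotypes changed sign for Mael (-0.0178), Ddx4 (-0.0569) and Dazl (-0.0222), all near 0, and the one by passage changed sign for Tex19.1 (-0.41). The block changed no other direction or call of a member between genotypes. A filter of 5 CPM turned Mael (-0.0081) and Dazl (-0.0007), and Pld6 was 0.0079 under RLE scaling, 0.0126 with no filter and 0.0080 under DESeq2.

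By passage, 16 members and 5264 of all genes passed with no filter, and 15 members and 7323 of all genes with the replicate block. Members that passed only with no filter included Gtsf1 and Mov10l1, both highest in the lines numbered 1. Scaled to the spermatogonia markers, 4 members and 7042 genes passed, and signs turned for Tdrd5 (-0.0064), Tdrd7 (-0.30), Tdrd9 (-0.35), Tdrd12 (-0.53), Tdrkh (-0.0008), Rnf17 (-0.0498), Mael (-0.64), Asz1 (-0.44), Pld6 (-0.65), Henmt1 (-0.28), Hsp90aa1 (-0.16), Prmt5 (-0.20), Dazl (-0.0280), Ddx25 (-0.14), Tex19.1 (-0.74), Tfap2c (-0.13), Edc4 (-0.13), Xrn1 (-0.22), Tex101 (-0.0129) and Uchl1 (-0.0401). By construction this scaling holds the libraries level at the median of the spermatogonia markers, Uchl1 among them, and fixes no single marker. Outside the set, the sign on this scale was read only for the genes named in the passage comparison.

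Leaving out 1 library at a time, 0 to 12 members and 284 to 4187 of all genes passed by passage, and 11 to 23 members and 4442 to 10084 of all genes among replicate numbers, the lowest without a replicate 3. Log2 fold changes between genotypes that changed sign in these fits were Tdrd1 (-0.29 to 0.16), Tdrd3 (-0.22 to 0.42), Tdrd7 (-0.21 to 0.12), Tdrd9 (-0.32 to 0.0917), Tdrkh (-0.28 to 0.15), Rnf17 (-0.33 to 0.0746), Mael (-0.19 to 0.12), Mov10l1 (-1.02 to 1.48), Pld6 (-0.38 to 0.22), Henmt1 (-0.31 to 0.37), Hsp90aa1 (-0.28 to 0.19), Prmt5 (-0.14 to 0.20), Mybl1 (-0.51 to 0.88), Ddx4 (-0.66 to 0.44), Dazl (-0.16 to 0.25), Ddx25 (-0.28 to 0.0798), Tex14 (-0.36 to 0.18), Tex19.1 (-1.28 to 0.17), Prdm1 (-1.77 to 0.23), Tfap2c (-0.17 to 1.16). By passage they were Tdrd12 (-0.35 to 0.61), Mael (-0.10 to 0.37), Mov10l1 (-0.18 to 1.31), Pld6 (-0.20 to 0.29), Tex19.1 (-3.38 to 0.56) and Tfap2c (-0.0049 to 1.20). The cause was not tested.

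Tdrd6, Sox17 and Rpl10l had at most 20 counts in a library and were tested only with no filter, where Tdrd6 passed among replicate numbers (adjusted p = 0.0499, edgeR), as Gtsf1 did. The depth limits what can be said of these genes.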

Other observations

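Other germline genes, chosen after their values were seen, showed the same kind of pattern bound to a line or a replicate number. Sycp1, of the synaptonemal complex of meiosis, had 33.4, 0.225 and 0 CPM in the Ephb2-KO lines and 17.9, 0.0392 and 0.0413 CPM in the wild type lines, and Sycp3, of the same complex, had 26.6, 0.360 and 0.295 CPM in the Ephb2-KO lines and 13.7, 0.313 and 0.248 CPM in the wild type lines. Hormad1, of meiotic chromosome axes, had 2.56, 0 and 0 CPM in the Ephb2-KO lines and 6.51, 0 and 0 CPM in the wild type lines. All 3 were highest in both lines numbered 1, as Gtsf1 was. Sycp1 and Sycp3 also made up most of the spermatocyte and spermatid marker sums given with Gtsf1. Pnldc1, the enzyme that trims piRNA 3′ ends, had 0.113, 3.83 and 9.63 CPM in the Ephb2-KO lines and 31.0, 8.58 and 9.94 CPM in the wild type lines, lowest in Ephb2-KO replicate 1, the line in which Tex19.1 and Tdrd12 were lowest too.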
